A study of Mus musculus with 48 samples.

Results

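The mRNAs of 10 genes that drive or restrain the passage from G1 into S phase were followed through the cytoplasm and the polysomes of a mouse pancreatic tumour line. They were the D cyclins Ccnd1, Ccnd2 and Ccnd3, their kinases Cdk4 and Cdk6, the E cyclins Ccne1 and Ccne2, the kinase inhibitor Cdkn1b (p27), the pocket protein Rb1 and its transcription factor partner E2f1. These 10 genes of the 50600 listed were chosen by name. No measured value was in the rule, though earlier results of these data were known. All 10 passed the filter on low counts that left 13889 genes. The cells were mPDAC, a line of mouse pancreatic ductal adenocarcinoma cells that the labels describe as FVB/N x C57BL6 in background and 8-week-old in age. The first arm was treated with N6L, a pseudopeptide that antagonises nucleolin, at 50 µM for 48 h, and the other was left non-treated (NT). Each arm had 3 cultures (numbered 1, 2 and 4 for NT and 1, 2 and 3 for N6L). From each culture the poly(A) RNA of the cytoplasm and that of the pooled polysomal fractions of the same lysate was sequenced, which gave 12 libraries. All groups thus share 1 cell line, and no other line, vehicle arm or time point is analysed here.

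D cyclins bind CDK4 and CDK6 and start the phosphorylation of the retinoblastoma protein, which holds E2F factors inactive. Released E2F factors switch on the E cyclins and the genes of DNA replication, and cyclin E with CDK2 completes the phosphorylation. The inhibitor p27 binds cyclin E-CDK2 complexes and blocks them. In pancreatic ductal tumours this checkpoint is often relieved at the level of the INK4 inhibitors, which act on CDK4 and CDK6. RNA on polysomes is being translated, so the polysome-to-cytoplasm ratio of a gene is read as a measure of how well its mRNA is engaged by ribosomes.

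The 12 libraries held between 19519911 and 44972333 counts, each the sum of 4 technical replicates. The labels of 3 technical replicates from N6L cytoplasm contradict each other, with culture 1 given by one field and culture 2 by another. Their counts differed from the remaining replicate of culture 2 by 1.01 to 1.04 chi-square per degree of freedom and from culture 1 by 11.2 to 11.4, and they were counted as culture 2. Without them, no member changed its side of the FDR limit in any comparison. Of 10 markers of ductal or epithelial tumour cells, 8 were at 1 CPM (counts scaled to the size of the library) or more in every library, with a summed level of 6761 to 11040 CPM, while Epcam and Cldn4 reached 0.301 CPM at most. The summed markers of islet cells, fibroblasts, leukocytes and endothelium did not exceed 2.23 CPM. Of 6 acinar markers only Cela1 was detected at 1 CPM or more, at 27.6 to 82.7 CPM, and 4 were at 0 in every library. In bulk RNA of this kind, fewer cells in a phase of the cycle and less RNA per cell cannot be told apart.

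In non-treated cytoplasm the members spanned a wide range of CPM per kb of transcript, the scale on which genes can be compared. Cdk4 stood highest, at 4415 ± 427 CPM per kb (SD, n = 3), followed by Ccnd1 at 302 ± 22.8. Ccnd3 had 58.2 ± 9.32, Ccnd2 42.7 ± 5.71 and E2f1 35.9 ± 4.56 CPM per kb. Below them lay Cdkn1b with 16.7 ± 4.11 and Cdk6 with 13.3 ± 0.930. The lowest levels were those of Ccne1 with 7.94 ± 2.11, Rb1 with 5.39 ± 1.77 and Ccne2 with 2.78 ± 0.431 CPM per kb. Neighbours in this order were separated in all 3 libraries except for the pairs Ccnd2 and E2f1, Cdkn1b and Cdk6, and Ccne1 and Rb1, whose ranges overlapped. By mRNA, Ccnd1 was thus the most abundant D cyclin of these cells, Cdk4 far exceeded Cdk6, and Ccne1 exceeded Ccne2.

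Cdk4, the catalytic partner of the D cyclins, stood at the top of all genes measured. Averaged over the 12 libraries it was the most abundant transcript by CPM (rank 1), it ranked between 1 and 3 in each library, and it took 0.663% to 1.25% of all counts. Per kb of transcript 4 of the genes tested lay above it. The gene lies at chr10:127063534-127067920 (mm10), and its neighbours, looked at after this level was seen, were also high. Of the 12 protein-coding genes within 100 kb, Cdk4 included, 8 lay above the 90th percentile of all genes tested (66.8 CPM per kb). Avil, which encodes the actin-binding protein advillin, averaged 983 CPM per kb, Tspan31 533, Ctdsp2 453, Tsfm 421 and Mettl1 259, against a median of 7.38 CPM per kb over the genes tested. The stretch was not uniform, since Cyp27b1 (0.781), Agap2 (1.42) and Eef1akmt3 (1.85 CPM per kb) lay below that median. Under N6L, Tsfm (-0.80, FDR 0.00480) and Mettl1 (-0.54, FDR 0.0344) fell in the cytoplasm together with Cdk4, and Agap2 rose (1.30, FDR 0.00305). DNA copy number is not analysed here.

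**Figure D1:**
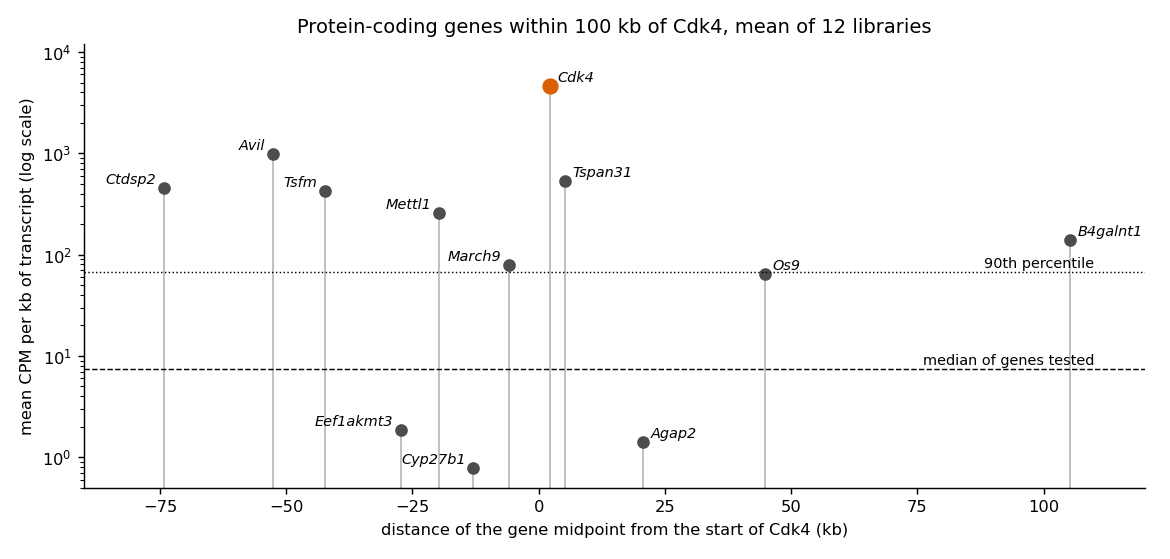
Mean CPM per kb of transcript over 12 libraries (log axis) for the 12 protein-coding genes within 100 kb of Cdk4, against the distance of the gene midpoint from the start of Cdk4 in kb. The dashed line is the median and the dotted line the 90th percentile of all genes tested, and 8 of the 12 genes, Cdk4 included, lie above the dotted line.

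Promoter sequences from RefSeq (GRCm38.p6) were matched for 6 members, and the 200 bases directly before the first annotated exon are shown for Ccne1, Cdk4 and Cdkn1b, the members with a single window that holds these bases whole. E2f1, Ccnd3 and Cdk6 are not shown, and their promoters were not searched. The E2F letters TTTNNCGC, the GC box GGGCGG, the E-box CACGTG, the CCAAT box CCAAT and the cAMP response element TGACGTCA were searched on both strands. Capitals mark GC boxes and E-boxes, in the strand of the gene from 5′ to 3′. Ccne1 lies at chr7:38107535-38107734 on the minus strand, Cdk4 at chr10:127063334-127063533 and Cdkn1b at chr6:134920201-134920400, both on the plus strand.
Ccne1: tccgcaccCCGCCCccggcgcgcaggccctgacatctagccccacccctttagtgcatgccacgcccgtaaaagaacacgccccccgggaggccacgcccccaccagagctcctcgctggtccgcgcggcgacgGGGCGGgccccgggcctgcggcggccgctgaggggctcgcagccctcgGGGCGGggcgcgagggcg
Cdk4: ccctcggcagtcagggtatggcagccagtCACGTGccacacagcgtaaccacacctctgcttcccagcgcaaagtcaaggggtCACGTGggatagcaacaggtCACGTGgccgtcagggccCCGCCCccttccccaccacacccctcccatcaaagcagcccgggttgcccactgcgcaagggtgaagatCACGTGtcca
Cdkn1b: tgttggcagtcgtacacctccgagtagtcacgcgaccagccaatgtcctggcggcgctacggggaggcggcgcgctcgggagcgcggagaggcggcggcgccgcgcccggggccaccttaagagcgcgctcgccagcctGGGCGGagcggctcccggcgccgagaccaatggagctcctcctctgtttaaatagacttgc

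The Cdk4 window held 4 copies of the E-box CACGTG, the letters bound by MYC with MAX and by other basic helix-loop-helix factors. Of 32807 promoter windows of the same 200 bases, 5.26% held at least 1 copy and 0.0213% (7 windows) at least 4. This motif was added after the sequence was seen. The Ccne1 window held 3 GC boxes, and those of Cdk4 and Cdkn1b 1 each, where 31.0% of windows held at least 1 and 7.28% at least 3. Cdkn1b had 2 CCAAT boxes (7.98% of windows had at least 2). The E2F letters (3.53% of windows) and the cAMP response element (1.47%) were not in these windows. A match describes the sequence only.

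The first comparison asked how N6L changed the share of each mRNA in the cytoplasmic RNA. The E cyclin Ccne1 and E2f1 fell most, to 46.5% and 56.7% of the non-treated mean, and Ccnd3 and Cdk4 fell to 63.6% and 70.4%. None of the members rose past the limit, though the inhibitor Cdkn1b was higher in all 3 N6L cultures than in any non-treated one. With edgeR's quasi-likelihood test and a Benjamini-Hochberg FDR limit of 0.05, 4 of 10 members were called, all lower. Over the 13889 genes tested 28.3% were called in either direction and 13.8% were called lower. The edgeR calls over all genes were 51.2% higher and the rest lower. With libraries scaled by their size alone this share was 65.5%, and the median over all genes went from a log2 change of 0.04 to one of 0.19. The 4 members were called lower under that scaling too. The libraries of N6L and non-treated cultures did not overlap for 6 of the 10 members, against 54.9% of all genes tested.

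**Figure D2:**
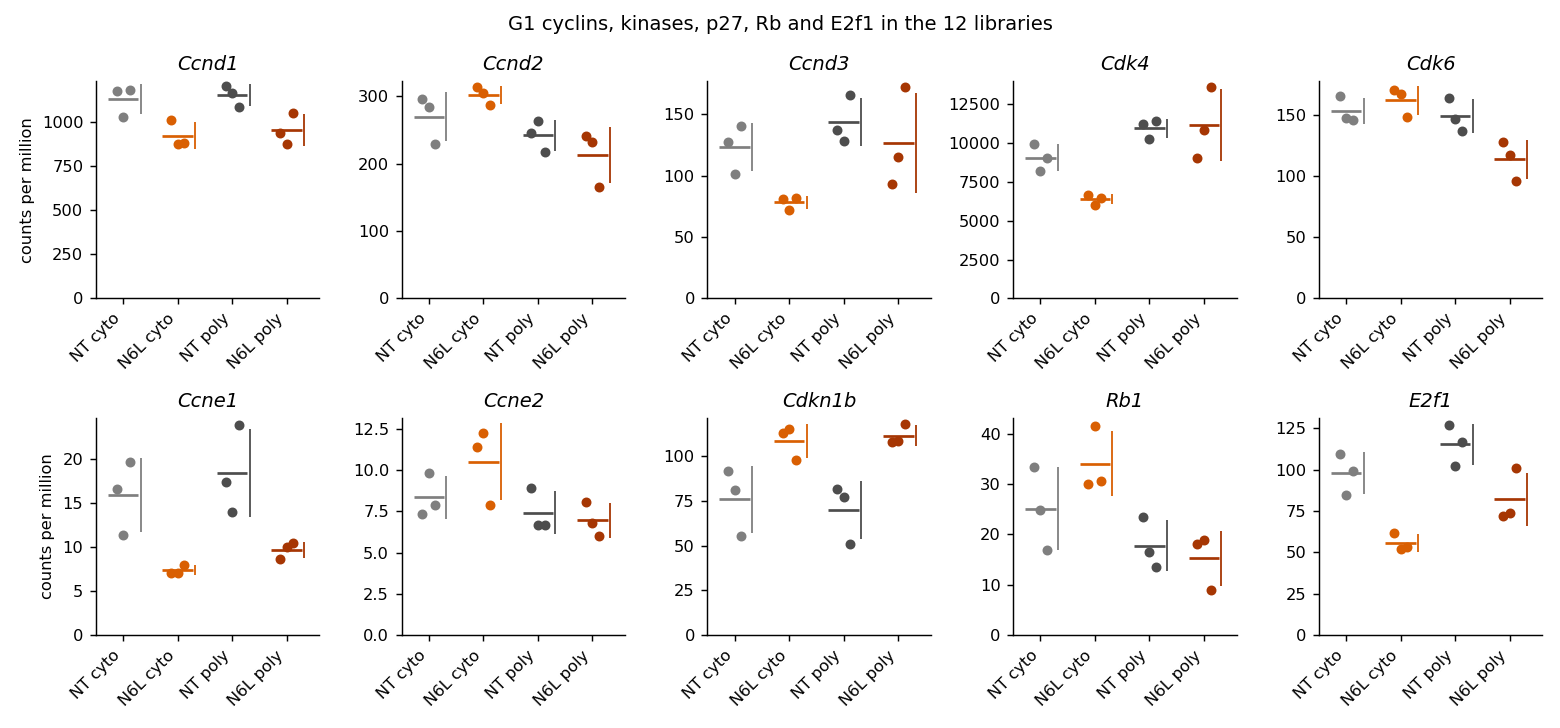
CPM of the 10 members (linear axes from 0) in non-treated (NT) and N6L cytoplasm (cyto) and polysomes (poly), with 1 point per library, the mean as a horizontal line and the SD as the vertical line beside it, n = 3 per group. All N6L points of Ccne1 and E2f1 lie below, and those of Cdkn1b above, the non-treated points of the same fraction.

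Among the D cyclins, Ccnd3 had 128, 101 and 140.0 CPM in the cytoplasm of NT cultures 1, 2 and 4 and 81.3, 72.1 and 81.4 CPM in N6L cultures 1, 2 and 3. Every N6L value lay below every non-treated one, and the log2 change was -0.65 ± 0.21 (SE, FDR 0.0319). Ccnd1, the most abundant of the 3, had 1176, 1029.7 and 1179 CPM without and 1011, 874 and 881 CPM with N6L. These ranges also did not overlap, but the log2 change of -0.29 ± 0.14 did not pass the limit (FDR 0.115). Ccnd2 ranged from 229 to 297 CPM without and from 287 to 314 CPM with N6L, with a log2 change of 0.16 ± 0.17 (FDR 0.485). Of the 3 D cyclins, Ccnd3 alone passed. Whether they differed in their change was tested only through their ratios to Ccnd1. In the cytoplasm the log2 ratio of Ccnd2 to Ccnd1 changed by 0.46 and that of Ccnd3 to Ccnd1 by -0.35. Neither overlapped between the treatments, at an exact permutation p of 0.1, the smallest that 3 cultures against 3 can give. On polysomes both overlapped (exact permutation p = 0.9). Offsets for transcript length and GC content, described below, turned the cytoplasmic change of Ccnd3 to Ccnd1 to 0.08. The call of Ccnd3 was lost without NT culture 1, NT culture 4 or N6L culture 2 (FDR 0.0962 to 0.118).

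Of the 2 kinases that D cyclins activate, Cdk4 had 9961, 8208 and 9023 CPM in the 3 non-treated cytoplasms and 6672, 6024 and 6458 CPM in the 3 treated ones. The groups did not overlap, and Cdk4 fell by 0.51 ± 0.16 on the log2 scale (FDR 0.0279). Leaving out NT culture 1, NT culture 4 or N6L culture 2 ended this call (FDR 0.0566 to 0.125). Cdk6 stood at 146 to 165 CPM without and 148 to 170.2 CPM with N6L and its log2 change was 0.08 ± 0.15 (FDR 0.700). The cytoplasmic change moved with the make-up of the transcripts: over the 10 members Spearman's rho was 0.709 with transcript length and -0.855 with GC content, and over all genes tested 0.503 and -0.217. With offsets that remove this trend library by library, 7 of 10 members were called lower, where 14.3% of all genes tested were. Ccne1, E2f1, Ccnd3 and Cdk4 remained called, Ccnd1 joined them at -0.51 (FDR 0.00636), and Cdk6 and Ccnd2 turned, with Cdk6 at a log2 change of -0.48 (FDR 0.0268) and Ccnd2 at -0.28 (FDR 0.0344).

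The E cyclins, which bind CDK2 at the G1/S boundary, differed in what passed the test. Ccne1 had 16.6, 11.3 and 19.7 CPM in NT cultures 1, 2 and 4 and 7.10, 7.03 and 8.01 CPM in N6L cultures 1, 2 and 3. The treated cultures lay close together and below all non-treated ones, with a log2 change of -1.10 ± 0.23 (FDR 0.00465). Ccne2 had 7.33, 9.80 and 7.91 CPM without and 11.4, 12.2 and 7.85 CPM with N6L, which overlapped, at a log2 change of 0.33 ± 0.21 (FDR 0.243). The fall of Ccne1 passed the limit under all 17 alternatives tried, with an FDR of at most 0.0341.

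The inhibitor p27 had higher values under N6L. Cdkn1b had 91.4, 81.3 and 55.1 CPM in the non-treated cytoplasms and 113, 115 and 97.6 CPM in the treated ones, which did not overlap. Its log2 change of 0.51 ± 0.20 missed the limit with an FDR of 0.0701, and its FDR ranged from 0.0310 to 0.962 over the alternatives. With the offsets for length and GC content the log2 change was 0.20 (FDR 0.469). NT culture 4 was the lowest of the 6 cytoplasms.

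At the end of the axis, E2f1 had 109.7, 84.9 and 99.3 CPM without N6L and 61.6, 51.8 and 53.2 CPM with it. All 3 treated cultures were below the lowest non-treated one, and the log2 change was -0.82 ± 0.17 (FDR 0.00476), past the limit under all 17 alternatives. Rb1, whose protein binds E2F1, had 33.4, 24.9 and 16.9 CPM without and 30.0, 41.5 and 30.6 CPM with N6L. The non-treated values of Rb1 were spread widely and overlapped the treated ones, so that a log2 change of 0.44 ± 0.30 had an FDR of 0.274.

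**Figure D3:**
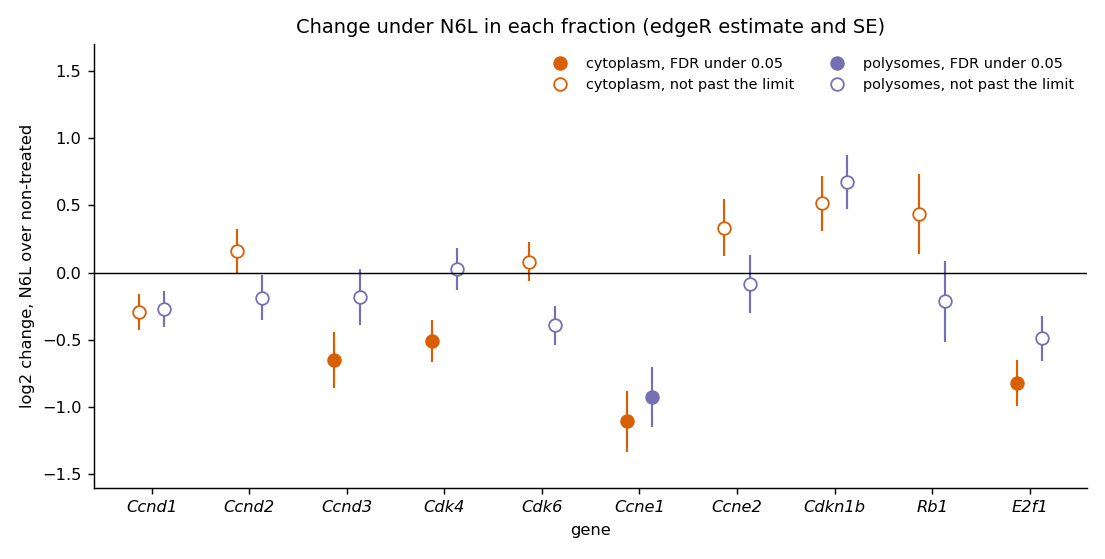
Log2 change of each member under N6L (edgeR estimate, bars are the SE, n = 3 cultures per group) in the cytoplasm and in the polysomes, with filled points for FDR under 0.05. Ccne1 is filled in both fractions, and Ccnd3, Cdk4 and E2f1 in the cytoplasm.

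The second comparison asked the same of the RNA on polysomes. Values of each fraction are shares of its libraries, so a change in the total RNA on polysomes does not appear in them. The paper reports smaller polysome peaks and less protein synthesis under N6L. Ccne1 was the only member past the limit there, at 52.7% of the non-treated mean, and Cdkn1b stood at 159.5%, just short of the limit. In all, 1 of 10 members was called and it was lower, beside 9.67% of all genes tested in either direction and 3.66% lower. Of the polysomal calls over all genes 62.2% were higher, and 77.6% when libraries were scaled by their size alone. Values of N6L and non-treated polysomes did not overlap for 5 of the 10 members, against 25.6% of all genes tested.

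Ccne1 had 17.3, 13.99 and 23.9 CPM in the polysomes of the non-treated cultures and 8.66, 9.97 and 10.5 CPM in those of the N6L cultures. The log2 change was -0.93 ± 0.22 (FDR 0.0220). It lost the limit without NT culture 1 or 4 or N6L culture 1 or 2 (FDR 0.0593 to 0.114) and when only the polysomal libraries entered the fit (FDR 0.0745). Cdkn1b had 81.5, 77.1 and 51.0 CPM without and 108, 108 and 118 CPM with N6L, where the treated libraries lay within a narrow band above all others. Its log2 change was 0.67 ± 0.20 (FDR 0.0508), and it passed under 5 of 17 alternatives, such as DESeq2 (FDR 0.0219), but in none of the 6 that left out a culture (FDR 0.0768 to 0.189). E2f1 had 127, 102 and 117 CPM without and 71.8, 74.0 and 101 CPM with N6L. These did not overlap, at a log2 change of -0.49 ± 0.17 (FDR 0.0817), and N6L culture 3 lay nearest to the non-treated values. E2f1 passed under 4 of 17 alternatives.

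Cdk4, which had fallen in the cytoplasm, was at 11218, 10243 and 11399.5 CPM on polysomes without N6L and at 9047, 10830.2 and 13621 CPM with it. The treated polysomes lay on both sides of the non-treated ones, with a log2 change of 0.03 ± 0.16 (FDR 0.930). Ccnd3 likewise overlapped, at 128 to 166 CPM without and 92.7 to 172 CPM with N6L. Cdk6 had 164, 147 and 137 CPM without and 128, 117 and 96.3 CPM with N6L, which did not overlap but missed the limit (-0.39 ± 0.15 log2, FDR 0.104). The same held for Ccnd1, with 1086 to 1206 CPM without and 876 to 1052 CPM with N6L (-0.27 ± 0.14 log2, FDR 0.220). Ccnd2, Ccne2 and Rb1 had log2 changes of -0.19, -0.09 and -0.21 with FDR values of 0.507 or more. With the offsets for length and GC content, E2f1 (-0.70, FDR 0.00430), Ccnd1 (-0.37, FDR 0.0369) and Ccnd3 (-0.37, FDR 0.0433) were called lower beside Ccne1. Cdkn1b was called higher (0.78, FDR 0.0156). These offsets called 20.8% of all genes tested, 10.6% lower. With the replicate block added, Ccnd3 and Cdkn1b no longer passed. DESeq2 also called E2f1 (FDR 0.0368) and Cdk6 (FDR 0.0431), and 14.6% of all genes tested.

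Ratios between 2 members of the same library do not depend on the scaling of the libraries, though they can move with the make-up of the transcripts. Of the 14 ratio tests set up (7 ratios in each fraction, on CPM per kb), 10 showed no overlap between N6L and non-treated cultures. The tests share members and are not separate results, and the same count over ratios of other genes was not made. As single genes, 54.9% of those tested did not overlap in the cytoplasm and 25.6% on polysomes. With 3 cultures against 3 the exact two-sided permutation test cannot go below p = 0.1, which each of the 10 reached, and the Benjamini-Hochberg value was 0.14. The ratio of p27 mRNA to that of its cyclin targets was higher in every N6L culture than in any non-treated one, in both fractions. Cdkn1b stood to the summed E cyclins as 1.86, 1.98 and 0.966 in the non-treated cytoplasms and as 3.34, 3.33 and 3.22 in the treated ones, 2.16-fold higher on average, with the treated cultures close together. On polysomes the ratio was 1.53, 1.83 and 0.791 without and 3.36, 3.27 and 3.55 with N6L, 2.60-fold higher. Against the summed D cyclins, Cdkn1b was 1.77-fold higher in the cytoplasm and 1.94-fold higher on polysomes. The ratios of Cdkn1b were not recomputed with the offsets for length and GC content. With these offsets the cytoplasmic log2 change of Cdkn1b itself was 0.20, and -0.013 with the replicate block added, against 0.51 without them.

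The ratio of the 2 E cyclins also lay apart in both fractions. Ccne2 was 0.295, 0.576 and 0.270 of Ccne1 in the non-treated cytoplasms and 1.07, 1.16 and 0.653 of it in the treated ones, so that Ccne2 exceeded Ccne1 in N6L cultures 1 and 2. On polysomes the mean ratio went from 0.274 to 0.476. E2f1 exceeded Rb1 by 6.86-fold per kb in the non-treated cytoplasm and by 2.80-fold in the treated one, without overlap. On polysomes this ratio overlapped, since N6L culture 3 had 18.9 against 6.78 and 6.70 in cultures 1 and 2. Cdk6 was at a ratio to Cdk4 of at most 0.00495 per kb in any library, and the ratio was 1.5-fold higher in the N6L cytoplasms and overlapped on polysomes. With the offsets for length and GC content the change under N6L of the cytoplasmic log2 ratio of Cdk6 to Cdk4 turned from 0.58 to -0.10, and that of Ccnd3 to Ccnd1 from -0.35 to 0.08. That of Ccne2 to Ccne1 was 1.26, against 1.38 without the offsets. For E2f1 to Rb1 it was -0.88 with the offsets and -0.82 with the replicate block added, against -1.29 without them.

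The third set of comparisons asked how the members were distributed between polysomes and cytoplasm. Both sides of the ratio are shares of their libraries, so a log2 ratio of 0 does not mark equal amounts of RNA in both fractions. In the non-treated cultures 0 of 10 members differed between the fractions, where 0.209% of all genes tested did, and 0 of the members had an unadjusted p under 0.05. DESeq2 also called 0 of them. In the N6L cultures 7 of 10 members differed, beside 39.0% of all genes tested. Cdk4, Ccnd3 and E2f1 were higher on polysomes (18.4% of all genes tested were higher), and Rb1, Ccne2, Cdk6 and Ccnd2 were lower (20.6% were lower). With libraries scaled by their size alone, 36.1% of the calls over all genes were higher, against 47.3% here, and the median of all genes moved from 0.03 to -0.11. With the cytoplasm and polysomes of each culture paired as a replicate block, Ccne1 was also called, at 0.39 (FDR 0.0225).

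The log2 polysome-to-cytoplasm ratio of Cdk4 was 0.17, 0.32 and 0.34 in NT cultures 1, 2 and 4 and 0.44, 0.85 and 1.08 in N6L cultures 1, 2 and 3. It was above 0 in all 6 and higher in each treated culture, and the fitted difference within the N6L cultures was 0.81 ± 0.16 (FDR 0.00460). For Ccnd3 the ratios were 0.10, 0.34 and 0.24 without and 0.19, 0.68 and 1.08 with N6L (0.70 ± 0.21 in N6L, FDR 0.0189). For E2f1 they were 0.21, 0.27 and 0.23 and 0.22, 0.52 and 0.92 (0.57 ± 0.17, FDR 0.0185). N6L culture 3 had the highest ratio of all cultures for these 3 genes, and N6L culture 1 lay within or close to the non-treated range.

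Rb1 was lower on polysomes in every culture. Its log2 ratios were -0.51, -0.60 and -0.33 without N6L and -0.73, -1.14 and -1.76 with it, and the fitted difference within N6L was -1.16 ± 0.30 (FDR 0.0109). Cdk6 had -0.01, -0.01 and -0.10 without and -0.42, -0.52 and -0.62 with N6L (-0.51 ± 0.15, FDR 0.0160), so that its ratio was near 0 in untreated cells and below 0 in every treated culture. Ccnd2 had -0.27, -0.11 and -0.08 and -0.38, -0.39 and -0.79 (-0.50 ± 0.17, FDR 0.0289), and Ccne2 0.29, -0.55 and -0.25 and -0.50, -0.85 and -0.38 (-0.59 ± 0.21, FDR 0.0392). Ccnd1 and Cdkn1b did not differ past the limit between the fractions in either treatment.

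**Figure D4:**
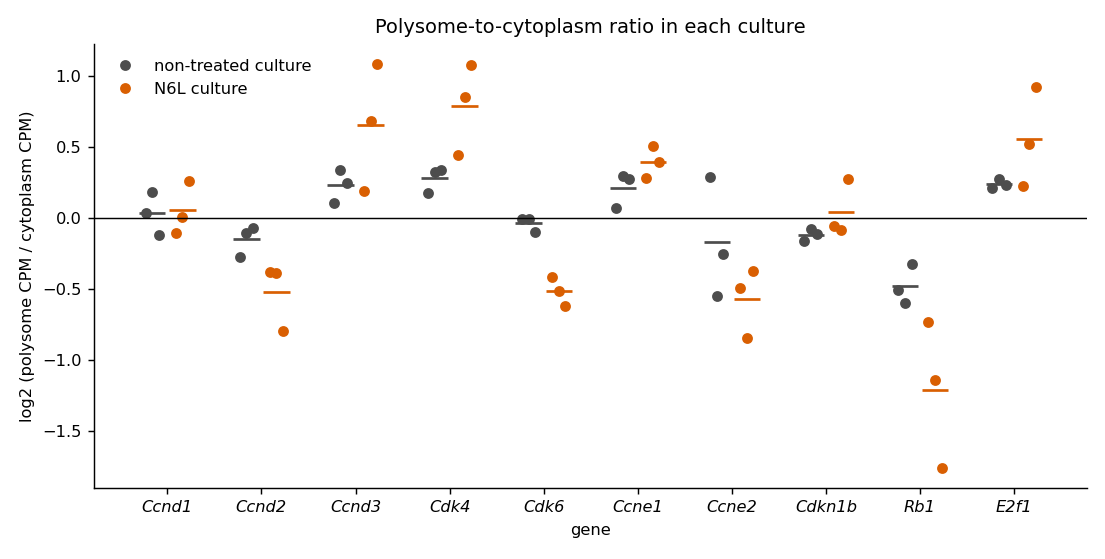
Log2 ratio of polysomal to cytoplasmic CPM of each member, 1 point per culture and a line for the mean of 3 cultures, in non-treated and N6L cultures. Cdk4 lies higher and Ccnd2, Cdk6 and Rb1 lie lower in all 3 N6L cultures than in any non-treated one.

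These calls rested on N6L cultures 2 and 3. Without either of them 1 of 10 members passed, which was Cdk4 in both cases, and the share of all genes tested fell to 8.22% and 11.7%. The call of Ccne2 held under 9 of 17 alternatives. It was also lost without N6L culture 1 (FDR 0.0646), NT culture 2 (FDR 0.0526) or NT culture 4 (FDR 0.0532). With only the 2 groups compared in the fit Ccne2 had an FDR of 0.0607. The ratio also moved with the make-up of the transcripts. Across the 10 members Spearman's rho of the N6L polysome-to-cytoplasm difference was -0.746 with transcript length and 0.915 with GC content, and across all genes tested -0.624 and 0.541. These are correlations across genes of the same libraries, and genes are not independent replicates. The members that were higher on polysomes had transcripts of 2.05 to 2.73 kb and 53.3% to 58.4% GC, and those that were lower 3.01 to 11.5 kb and 36.3% to 47.1% GC. With offsets for length and GC content, Cdk4 was still higher at 0.40 (FDR 0.0271), Cdk6 turned to 0.60 (FDR 0.0173), Ccnd2 to 0.16 and Ccne2 to 0.08, and Cdkn1b was called higher at 0.77 (FDR 0.0201). Ccnd3 (0.11), E2f1 (0.17) and Rb1 (-0.42) no longer passed. Offsets and the replicate block together called Rb1 again (-0.42, FDR 0.0112), so that Cdk4, Cdk6, Cdkn1b and Rb1 passed. The offsets alone called 16.6% of all genes tested, and with the block 31.1%.

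Whether N6L changed the polysome-to-cytoplasm ratio itself was tested as an interaction, the translational index. With edgeR no member and no other gene passed, so that 0.0% of all genes tested were called, with a smallest FDR of 0.555. At an unadjusted p under 0.05 edgeR had 1074 genes (7.73%), and DESeq2 called 0 genes at the FDR limit. With no filter on low counts 114 of 25915 genes passed, none of them a member, and 1 gene did without N6L culture 1. Of the members, Cdk4 had an index of 0.53 ± 0.22 (unadjusted edgeR p = 0.0292) and Cdk6 one of -0.47 ± 0.21 (unadjusted edgeR p = 0.0382). Rb1 had the lowest index with -0.65 ± 0.42 and Ccnd3 had 0.47 ± 0.29, while Ccnd1 was at 0.02 ± 0.19. The ratios of N6L and non-treated cultures did not overlap for 4 of 10 members, Cdk4, Ccnd2, Cdk6 and Rb1, beside 29.7% of all genes tested. Each of these 4 had an exact permutation p of 0.1, the smallest 3 cultures against 3 can give. A difference between the treatments in how the members were loaded is therefore not shown, although 7 members passed in the N6L cultures and 0 in the non-treated ones.

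The genes that E2F factors switch on for DNA replication were examined as a list of 25, all tested. This list, like the others below, was chosen with earlier results of these data known. In the cytoplasm 9 fell, 16 did not pass and 0 rose, where 13.8% of all genes tested were called lower. The median log2 change was -0.31 against 0.04 over all genes tested. On polysomes 8 fell, 17 did not pass and 0 rose, where 3.66% of all genes tested were called lower. The median was -0.51 against 0.00. Of the 25, 6 were called in both fractions, among them Dut, Gins1 and Tyms. Dut, which clears dUTP, fell by 1.33 ± 0.21 on the log2 scale in the cytoplasm (FDR 0.00169), from 351 to 563 CPM without N6L down to 173 to 188 CPM. Gins1, a subunit of the replicative helicase, went from 49.4 to 75.2 CPM to 25.8 to 31.1 CPM (-1.11 ± 0.20, FDR 0.00259). Tyms, the thymidylate synthase, fell with them (-0.94 ± 0.17, FDR 0.00275). The polysomal count was 0 without NT culture 1 (1.44% of all genes tested passed) or N6L culture 2 (1.04%), and 15 without N6L culture 1 (11.2%). It was 1 without NT culture 4 (4.44%) or with only the polysomal libraries in the fit (2.46%). With the offsets for length and GC content it was 18 (20.8%). The cytoplasmic count was 4 without N6L culture 2 (9.24%).

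**Figure D5:**
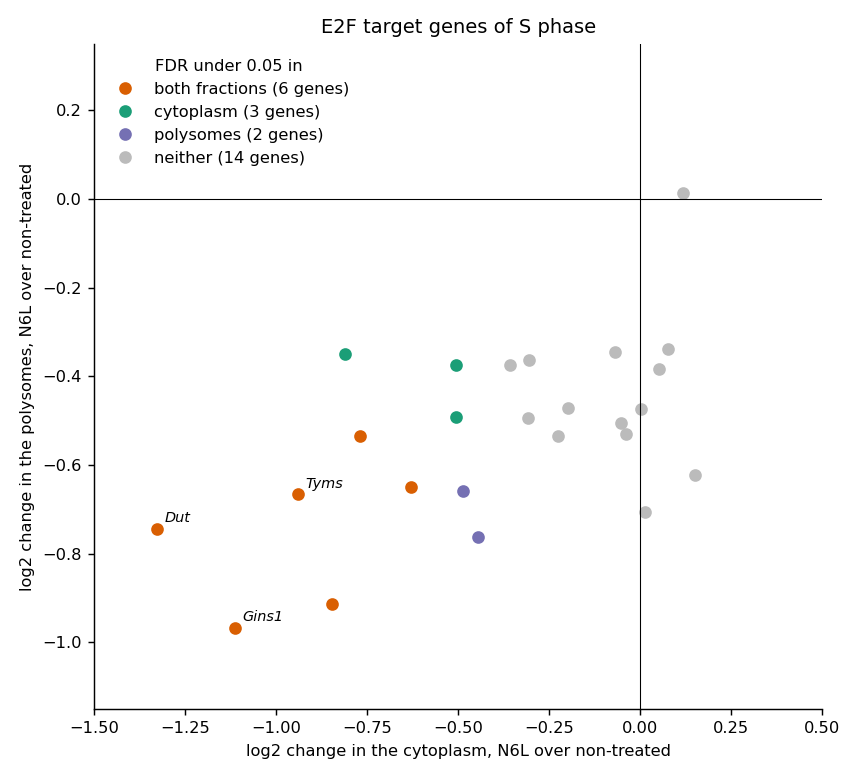
Log2 change under N6L of 25 E2F target genes of S phase in the cytoplasm (horizontal axis) and on polysomes (vertical axis), 1 point per gene, coloured by the fraction in which the FDR was under 0.05. The 6 genes past the limit in both fractions, of which Dut, Gins1 and Tyms are named, and the 5 past it in 1 fraction all lie below 0 on both axes.

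The other CDK inhibitors were all detected. Cdkn2a, the INK4A and ARF locus, had 178 to 221 CPM in the non-treated and 101 to 112 CPM in the N6L cytoplasm (-0.89 ± 0.20, FDR 0.00694), and its neighbour Cdkn2b (INK4B) had -0.45 ± 0.15, FDR 0.0410. Of all genes tested 28.3% passed in the cytoplasm, and under 10 of 17 alternatives 1 of the 6 passed rather than 2. Cdkn1a (p21) had 117 to 131 CPM without and 125 to 131 CPM with N6L (0.04 ± 0.16, FDR 0.865). Cdkn2c (-0.18 ± 0.17, FDR 0.431), Cdkn2d (-0.17 ± 0.20, FDR 0.535) and Cdkn1c (-0.10 ± 0.33, FDR 0.842) did not pass in the cytoplasm. On polysomes 0 of the 6 passed, with a smallest FDR of 0.150. In the N6L cultures 5 of the 6 were higher on polysomes than in the cytoplasm, as were 18.4% of all genes tested. The log2 differences ran from 0.56 for Cdkn1a to 0.96 for Cdkn2a, and Cdkn1c did not pass. With the offsets for length and GC content 0 of the 6 passed, also with the replicate block added, where 16.6% and 31.1% of all genes tested did.

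Among 11 further pocket protein, E2F and DP genes, 1 rose and 1 fell in the cytoplasm and 0 passed on polysomes. Of all genes tested 28.3% and 9.67% passed there. With the offsets for length and GC content 4 of the 11 passed in the cytoplasm (28.3% of all genes tested) and 3 on polysomes (20.8%). The polysomal count was 5 with the replicate block added (20.6%) and 1 with DESeq2 (14.6%). Rbl2, which encodes the pocket protein p130 of resting cells, rose from 19.2 to 29.3 CPM to 44.0 to 52.8 CPM (0.93 ± 0.23, FDR 0.0107), and E2f2, an activator like E2f1, fell (-0.48 ± 0.16, FDR 0.0362). Neither passed without NT culture 4 or without N6L culture 2, where 0 of the 11 did and 15.5% and 9.24% of all genes tested did. Of 14 genes for the turnover of G1 cyclins and p27, 2 rose and 2 fell in the cytoplasm, a share near the 28.3% of all genes tested. The count was 1 when NT culture 1 or 4 or N6L culture 1 or 2 was left out (9.24% to 23.0% of all genes tested). It was 2 with the offsets for length and GC content (28.3%). The largest change there was that of Cks1b, the cofactor with which SKP2 marks p27 for destruction, which fell from 301 to 393 CPM to 173 to 195 CPM (-0.90 ± 0.17, FDR 0.00344). Skp2 itself did not pass (-0.40 ± 0.20, FDR 0.150). Rbx1, the RING subunit of these ligases, fell (-0.59 ± 0.19, FDR 0.0320), and Usp28 (0.64 ± 0.21, FDR 0.0394), a deubiquitinase, and Ambra1 (0.50 ± 0.16, FDR 0.0312), the receptor that targets D cyclins for destruction, rose.

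Of 8 other G1 kinases, cyclins and activators only Ccnh, the cyclin of the CDK-activating kinase, passed, and it fell in both fractions (-0.65 ± 0.16, FDR 0.0104 in the cytoplasm and -0.66 ± 0.16, FDR 0.0221 on polysomes). The polysomal call was lost when libraries were scaled by their size alone, with only the polysomal libraries in the fit, and without NT culture 1, NT culture 4, N6L culture 2 or N6L culture 3. Cdk2, the partner of the E cyclins, did not pass (-0.20 ± 0.14, FDR 0.291 in the cytoplasm). With the offsets for length and GC content 5 of the 8 passed in the cytoplasm (28.3% of all genes tested). The count there was 6 with the replicate block added (30.5%) and 5 with only the 2 groups compared in the fit (42.2%). On polysomes 4 of the 8 passed with the offsets (20.8%) and 3 with DESeq2 (14.6%). In the DREAM and MuvB complex, which represses cell cycle genes in resting cells, 1 of 7 genes passed in the cytoplasm (Lin37, -0.60 ± 0.17, FDR 0.0170) and 0 on polysomes, and 0 passed in the cytoplasm without NT culture 2 or N6L culture 2. Of 16 S, G2 and mitotic genes 2 fell in the cytoplasm (1 without NT culture 1, NT culture 4 or N6L culture 2), Cdk1 (-0.67 ± 0.15, FDR 0.00687) and Ccnb2 (-0.57 ± 0.16, FDR 0.0189), and 0 passed on polysomes. Mki67, the proliferation marker, did not pass (0.61 ± 0.43, FDR 0.291 in the cytoplasm) and varied widely, from 179 to 437 CPM over the 3 N6L cytoplasms. Over all genes tested 28.3% passed in the cytoplasm and 9.67% on polysomes. With the offsets 1 of the 7 DREAM and MuvB genes and 3 of the 16 S, G2 and mitotic genes passed on polysomes (20.8% of all genes tested). With the replicate block added the polysomal counts were 3 and 3 (20.6%). The median log2 changes of the 6 lists other than the E2F targets lay between -0.36 and 0.21 over both fractions.

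Within the N6L cultures the difference between polysomes and cytoplasm also passed for genes of these lists in both directions: 1 higher and 6 lower of the 11 pocket protein, E2F and DP genes, 4 higher and 5 lower of the 14 turnover genes, 3 higher and 4 lower of the 25 E2F targets, 1 higher and 3 lower of the 7 DREAM and MuvB genes, 0 higher and 1 lower of the 8 other G1 genes, and 1 higher and 3 lower of the 16 S, G2 and mitotic genes. Over all genes tested 39.0% passed, 18.4% higher and 20.6% lower. The E2F targets, the other G1 genes and the S, G2 and mitotic genes lay below that total share. The lowest value was that of Mki67, with -2.81 ± 0.46, FDR 0.00427. In the non-treated cultures Mki67 had -1.47 ± 0.43 (FDR 0.184), and its index of -1.34 ± 0.61 did not pass (FDR 0.555). Paired as a replicate block, 14 E2F targets and 8 S, G2 and mitotic genes passed in place of 7 and 4, beside 53.7% of all genes tested. Without N6L culture 2 or 3 the number of E2F targets was 0 or 1, that of the CDK inhibitors 1 or 2 and that of the pocket protein, E2F and DP genes 0 or 2. The share of all genes tested was then 8.22% or 11.7%. With the offsets for length and GC content the counts were 1 of the pocket protein, E2F and DP genes, 4 of the turnover genes, 1 of the DREAM and MuvB genes and 3 of the E2F targets. These offsets called 16.6% of all genes tested. None of the 87 list genes passed edgeR's test of the index, and, of the same genes, none differed between the fractions in the non-treated cultures. With no filter on low counts 2 S, G2 and mitotic genes passed the index and 1 differed between the fractions in non-treated cultures, as 1 did with DESeq2.

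For the 4 called members the genes with the most similar course over the 12 libraries were sought among the 8959 genes averaging 10 CPM or more, by the root-mean-square difference of centred log2 CPM. They were Atp5j (0.112), Snrpd1 (0.119) and C1qbp (0.121) for Ccne1, whose own centred values had a root mean square of 0.566, and Rhebl1 (0.0868), Rpl7a (0.0872) and Caml (0.0905) for E2f1 (0.422). For Cdk4 they were Mrpl10 (0.0600), Tmem107 (0.0704) and Camk1 (0.0761), and for Ccnd3 Mpg (0.0640), Efhd2 (0.0677) and Gemin7 (0.0684). No member was among the nearest 3 of another.

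Some members share genomic sequence with genes of the opposite strand. The libraries were made strand-specific, but how strand was handled in counting is not given in the sources used here. Reads from such a gene pair may not have been told apart. Ccne2 (chr4:11191351-11204779) overlaps 5622 bases with Ints8, whose counts were 711% of its own. Rb1 (chr14:73183673-73325822) overlaps Rcbtb2 (79.4%) and Lpar6 (12.9%) and Ccnd3 (chr17:47505051-47599691) overlaps Bysl (71.7%, over 361 shared bases). These percentages take the counts of the whole overlapping gene, not those of the shared bases. The values of Ccne2, Rb1 and Ccnd3 are uncertain for this reason, by an amount that was not measured. For Cdk4 and Tspan31 (8.96%) and for Ccnd1 (chr7:144929931-144939925) and LTO1 (3.92%) the share was small. Ccne1 (chr7:38097984-38107534), E2f1 (chr2:154559407-154569892) and Cdkn1b (chr6:134920401-134925513) overlap no annotated gene, and Ccnd2 (chr6:127125162-127152193) and Cdk6 (chr5:3341485-3531008) overlap only antisense transcripts with at most 0.476% of their counts. Coordinates are those of GENCODE on mm10.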

How the data were processed

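RNA of 48 technical replicates (12 libraries of 4) was analysed. The authors deposited raw counts of reads per gene for each of them. The submitters' processing notes name bcl2fastq 2.18.0.12, STAR, HTSeq 0.5.3 and the build mm10, and the protocol gives a stranded poly(A) library kit. The strand setting of the counting is not given in the sources used here.

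The 4 technical replicates of a library were summed (chi-square per degree of freedom near 1 between them). The rows naming no gene numbered 0. The members, the 7 gene lists and the tests were chosen with earlier results of these data known. Counts were fitted with edgeR 4.0.16 (TMM scaling, filterByExpr, quasi-likelihood test, 1 mean for each of 4 groups, Benjamini-Hochberg adjustment over 13889 genes, FDR limit 0.05) in R 4.3.3, and DESeq2 1.42.0 served as an alternative. The common biological coefficient of variation was 0.197. Levels are CPM of the TMM-scaled library, per kb of the transcript where genes are compared. All members and all CDK inhibitors were named, and from each other list up to the 4 genes past the limit with the largest log2 change. For each member past the limit under N6L the 3 nearest genes were named. Skp2, Cdk2 and the neighbours of Cdk4 fall outside this rule and were added after their values were seen. A gene that the rule names is not reported here. Numbered samples are called cultures here, and p-values measure the spread between these samples, which may be technical.

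The cytoplasm and polysomes of a sample come from 1 lysate and are therefore paired. Their deviations from the group means correlated across genes with r = 0.364, 0.452 and 0.645 in the non-treated and 0.0368, 0.199 and 0.229 in the N6L cultures. Counts were simulated for 13889 genes with 200 changed by a log2 of 1 or 2 in either direction, and smaller changes were not simulated. The fit recovered 85.5% of them for N6L in the cytoplasm, 84% for N6L on polysomes, 83.5% for polysome against cytoplasm in non-treated and 77.5% in N6L cultures. Of the log2 changes of 1 alone, the fit recovered 74%, 71%, 67% and 61% in the same order. For the translational index it recovered 18% of log2 changes of 1 and 90% of those of 2. The 3 technical replicates with conflicting labels were counted with sample 2. With 3 samples per group no test for single outlying samples was made. Transcript length and GC content came from GENCODE on mm10 (99.8% of genes tested had a value). Ratios between members were tested with the exact permutation test (scipy 1.17.1).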

Additional observations from a re-analysis of the deposited data

How the results depend on the processing

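Over all alternatives 737 recomputed log2 changes of members kept their direction and their side of the limit, 32 lost it, 22 gained it and 49 changed sign. The falls of Ccne1 and E2f1 in the cytoplasm passed under all 17 alternatives. With the offsets for length and GC content 7 members passed in the cytoplasm, 5 on polysomes and 3 between the fractions of N6L cultures, where 28.3%, 20.8% and 16.6% of all genes tested did. With the replicate block added to these offsets the numbers were 7, 3 and 4 (30.5%, 20.6% and 31.1% of all genes). On polysomes 2 members passed with no filter on low counts (6.66% of all genes), 2 with at least 10 counts in every library (10.2%), 4 with DESeq2 (14.6%) and 0 with only the 2 groups in the fit (2.46%). Leaving out 1 culture at a time, 2 to 4 members passed in the cytoplasm, 0 to 2 on polysomes and 1 to 7 between the fractions of N6L cultures (9.24% to 28.7%, 1.04% to 11.2% and 8.22% to 41.8% of all genes tested), and 0 in the non-treated cultures and in the translational index.

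N6L and non-treated cultures share only the numbers 1 and 2, which nothing in the labels pairs (r between same-numbered samples 0.228 and 0.0455 in the cytoplasm, 0.296 and 0.00756 on polysomes). With the number as a replicate block 2 members passed on polysomes (Ccne1, and Cdkn1b at a log2 change of 0.51), Ccne2 turned to 0.0054 and Cdk4 to -0.049 there. For the pairs of 1 lysate the replicate block alone changed no call of a member other than that of Ccne1, and added to the offsets it brought back that of Rb1. In a setting added after the data were seen, the offsets turned the change under N6L of the cytoplasmic log2 ratio of Cdk6 to Cdk4 to -0.10 (-0.090 with the block) and that of Ccnd3 to Ccnd1 to 0.081 (0.11).

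The following signs turned, none of them of a member called by edgeR except Cdk6, Ccnd2 and Ccne2 between the fractions of N6L cultures. Offsets for length and GC content, without and with the replicate block, gave Ccnd2 -0.28 and -0.30 and Cdk6 -0.48 and -0.49 in the cytoplasm, and Cdk4 -0.075 and -0.099 on polysomes. Between the fractions of non-treated cultures they gave Ccnd2 0.050 and 0.050, Ccne2 0.44 and 0.46, Cdk6 0.31 and 0.32 and Cdkn1b 0.20 and 0.20. Between those of N6L cultures they gave Ccnd2 0.16 and 0.16, Ccne2 0.081 and 0.075, and Cdk6 0.60 and 0.57. In the translational index they gave Ccnd2 0.11 and 0.11, Ccne1 -0.024 and -0.021, and Cdk6 0.29 and 0.26. With the block and offsets together, Cdkn1b was -0.013 in the cytoplasm and Ccne2 0.0012 on polysomes. Library size alone gave Ccne2 0.0028 on polysomes, Ccnd1 -0.039 and -0.086 between the fractions of non-treated and N6L cultures and -0.047 in the index, and Cdkn1b -0.098 between those of N6L cultures. With no filter on low counts the index of Ccnd1 was -0.014. Leaving out 1 culture at a time, values on polysomes ranged from -0.46 to 0.00075 for Ccnd3, -0.21 to 0.061 for Ccne2, -0.14 to 0.16 for Cdk4 and -0.40 to 0.056 for Rb1. Between the fractions of non-treated cultures they ranged from -0.038 to 0.079 for Ccnd1 and -0.41 to 0.027 for Ccne2, between those of N6L cultures from -0.053 to 0.13 for Ccnd1 and -0.073 to 0.12 for Cdkn1b, and in the index from -0.084 to 0.10 for Ccnd1. The cause of these turns was not tested.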
